A study of Mus musculus with 2 samples.

Results

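The genes described here are the chemokines, interleukins, interleukin receptors and acute-phase genes of 2 lines of immortal mouse embryonic fibroblasts. They were chosen by symbol: all listed genes named Ccl, Cxcl, Il or Saa followed by a digit, with Cx3cl1, Lcn2, Lif, Csf1, Csf2 and Tslp. The rule found 125 of 22711 listed genes, and no measured value entered it. They comprise 21 CC chemokines, 13 CXC or CX3C chemokines, 39 interleukins, 41 interleukin receptors, 5 acute-phase genes, 4 other cytokines and 2 further genes (Il18bp and Il4i1).

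Both lines are hybrids of 2 mouse strains, C57BL/6N, called B6 below, and PWK/PhJ, called PWK, and both were grown in the same serum-containing medium with no added cytokine named in the labels. The line called B6-Xi carries its inactive X chromosome on the B6 copy and has the strain label PWK/PhJ X C57BL/6N. The line called PWK-Xi carries it on the PWK copy and has the strain label C57BL/6N X PWK/PhJ. Each line gave 1 Smart-seq2 library of polyadenylated RNA, so every difference below is between 2 libraries, has no replicate check and carries no p-value. Being immortal lines, the cells model cultured fibroblasts only, and the labels do not say whether a line is 1 clone.

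Chemokines are small secreted proteins that attract leukocytes through receptors on the leukocyte surface. CC chemokines such as CCL2 act mainly on monocytes and T cells, and CXC chemokines such as CXCL1 act mainly on neutrophils. Several interleukin-1 family receptors pair a ligand-binding chain with the shared accessory chain IL1RAP and signal through MYD88 to NF-κB. That pathway, together with C/EBP factors and the gp130 to STAT3 pathway, is known to induce acute-phase genes such as the serum amyloid A genes. Fibroblasts are known to make several of these signals in injured tissue.

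Values are FPKM (fragments scaled by transcript length and by library size), and a gene's total is the sum of its B6 and PWK allele values. The B6 share is the B6 value as a percent of that total. Of fibroblast markers, 10 of 11 reached 5 FPKM in at least 1 line, while Vim was listed at 0 in both lines and Lum in B6-Xi. Leukocyte markers were nearly absent: 12 of 16 were listed at 0 in both lines, Ptprc, which defines leukocytes, had 0 FPKM in the B6-Xi line against 0.050 in PWK-Xi, and the whole list summed to 1.56 and 4.81 FPKM, mostly from Cd68 (1.39 and 3.25 FPKM). Epithelial and endothelial markers all stayed under 1 FPKM. Totals over all genes were 285397 and 256196 FPKM in the B6-Xi and PWK-Xi libraries, with 10127 and 12907 genes above 0. A value of 0 can be a failed estimate in these files, so no fold is given against one.

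Most members were not detected. Of the 125 members, 67 were listed at 0 in both lines, against 42.2% of all listed genes. In B6-Xi 22 members reached 1 FPKM (17.6% of members, against 35.7% of all genes), and in PWK-Xi 32 did (25.6%, against 39.8%). 36 members reached 1 FPKM in either line, 25 reached 5 FPKM, and 22 lay above 0 but under 1 FPKM in both. Secreted interleukins were the emptiest group. Of 39, 29 were listed at 0 in both lines, and the 3 that reached 1 FPKM did so in PWK-Xi: Il1rn, the secreted antagonist of interleukin-1 (1.96 FPKM), Il6, the main inducer of the hepatic acute phase (1.73 FPKM), and Il1a, an agonist of the interleukin-1 receptor (1.15 FPKM). All 3 were listed at 0 in B6-Xi.

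A few genes carried nearly all of the signal. The members summed to 3899.5 FPKM in B6-Xi (1.37% of all FPKM) and 7392 FPKM in PWK-Xi (2.89%). In B6-Xi, Ccl2 and Ccl7 held 84.3% of the members' sum. In PWK-Xi, Saa3, Ccl2 and Ccl7 held 90.7%.

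**Figure D1:**
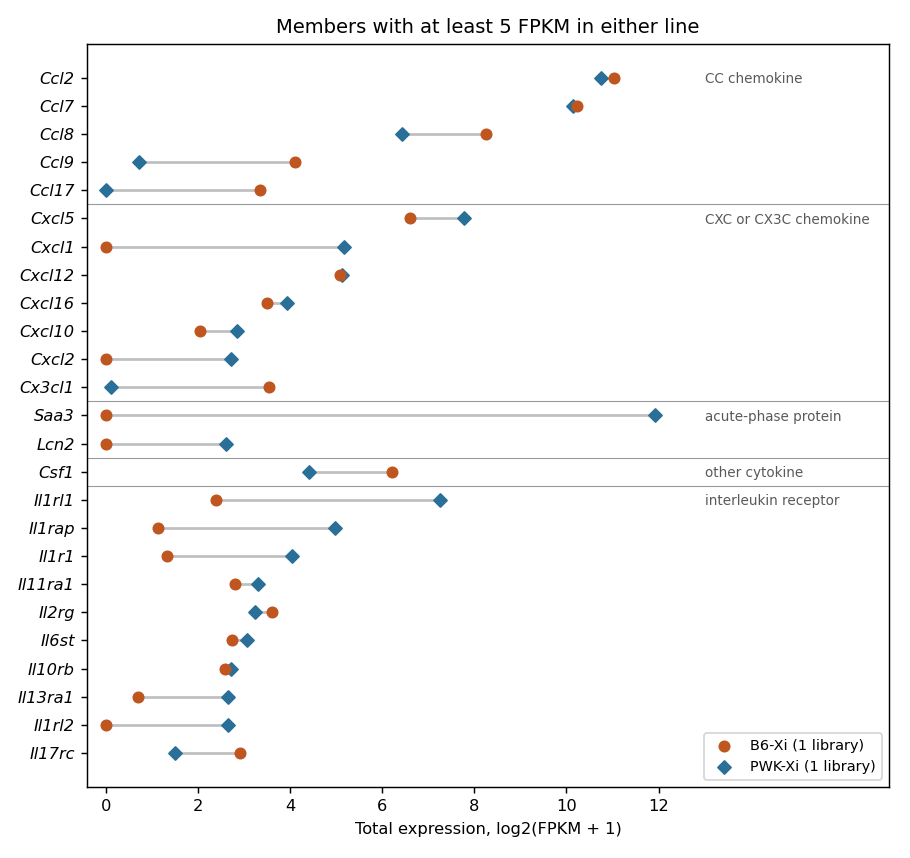
Total expression on the scale log2(FPKM + 1) of the 25 members with at least 5 FPKM in either line, grouped by role; circles are the B6-Xi library and diamonds the PWK-Xi library. Ccl2 and Ccl7 lie at nearly the same level in both lines, Saa3 lies at 0 in B6-Xi and at 3859.9 FPKM in PWK-Xi, and Il1rl1, Il1rap and Il1r1 lie to the right in PWK-Xi.

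The comparison asked how the levels of these genes differed between the lines. On the measure used for differences, 8 of the 25 members that reached 5 FPKM in a line were at least 4-fold higher in PWK-Xi, taken as log2(FPKM + 1), against 7.05% of 5490 genes so filtered, and 3 were at least 4-fold lower, against 1.33%. The 8 were Saa3, Cxcl1, Cxcl2, Lcn2, Il1rl1, Il1rap, Il1r1 and Il1rl2; the 3 were Ccl9, Ccl17 and Cx3cl1. Each of the 8 reached 5 FPKM in PWK-Xi alone and each of the 3 in B6-Xi alone, so the minimum was passed through the line where the gene is high and the counts are a description. In 5 of the 8 and 1 of the 3 the lower line was listed at 0, and among the 19 members above 0 in both lines 3 were higher and 2 lower, against 2.79% and 1.24% of 5241 genes. All of the 8 but Saa3 lie on one of the 9 autosomes whose median B6 share lay over 5 points from that of all autosomes in either line, which hold 17 of the 25 members. Without those 17, 8 members were left, of which 1 was higher and 2 were lower. The members' median log2 difference turned from 0.44 to -0.17, both before the median of all genes is subtracted. All genes were not recounted without those autosomes, so these values have no matching background. The median log2 difference of all genes tested was 0.23, and log2 differences below are relative to it. The members' own median was 0.21, or -0.10 for those above 0 in both lines, against -0.03 for all genes above 0 in both, so the members moved in both directions.

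Saa3, which encodes the serum amyloid A made outside the liver, stood furthest apart. It was listed at 0 in B6-Xi for both alleles. In PWK-Xi it had 264.2 FPKM from B6 and 3596 FPKM from PWK, a total of 3859.9 FPKM that was rank 2 of all listed genes and 1.51% of all FPKM. Its neighbours Saa4, Saa1 and Saa2 were listed at 0 in both lines. The serum amyloid A genes resemble each other, and how the reads of similar copies were handled is not stated in the labels, so these values are uncertain. Lcn2, an iron-siderophore-binding acute-phase protein, was likewise at 0 in the B6-Xi file, and in PWK-Xi it had 1.23 FPKM from B6 and 3.84 FPKM from PWK. Being listed at 0 in B6-Xi was not rare: among genes that reached 5 FPKM in PWK-Xi it held for 4.76% of 5065, and for 5 of the 21 members at that level (23.8%). The reverse held for 0.182% of 4385 genes and for 1 of 14 members, Ccl17.

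The stretches before the start of 3 genes are shown because these genes were listed at 0 in B6-Xi and expressed in PWK-Xi: Saa3, and the neighbouring neutrophil attractants Cxcl1 and Cxcl2. Each is the 250 bases upstream of the RefSeq start (build GRCm38.p6, a later mouse reference than that of the files), 5′ to 3′ on the gene's strand. The letters are those of the reference and were not read from either line. In PWK-Xi, Saa3 (93.2%) and Cxcl1 (99.6%) came mostly from the PWK allele, and whether that allele has the same letters was not tested. Capitals mark the longest run of bases that the Cxcl1 and Cxcl2 stretches share on either strand.
Saa3 (chr7:46715677-46715926, minus strand): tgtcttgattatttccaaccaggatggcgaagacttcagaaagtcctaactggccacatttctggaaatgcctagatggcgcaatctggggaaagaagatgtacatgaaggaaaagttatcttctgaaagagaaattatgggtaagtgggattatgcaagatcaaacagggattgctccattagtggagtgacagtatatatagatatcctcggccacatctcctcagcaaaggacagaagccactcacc
Cxcl1 (chr5:90890995-90891244, plus strand): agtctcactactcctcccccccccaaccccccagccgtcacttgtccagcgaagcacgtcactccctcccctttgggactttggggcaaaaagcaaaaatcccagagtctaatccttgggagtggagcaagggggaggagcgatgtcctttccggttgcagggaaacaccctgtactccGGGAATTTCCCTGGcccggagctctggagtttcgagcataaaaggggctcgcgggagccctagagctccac
Cxcl2 (chr5:90903649-90903898, plus strand): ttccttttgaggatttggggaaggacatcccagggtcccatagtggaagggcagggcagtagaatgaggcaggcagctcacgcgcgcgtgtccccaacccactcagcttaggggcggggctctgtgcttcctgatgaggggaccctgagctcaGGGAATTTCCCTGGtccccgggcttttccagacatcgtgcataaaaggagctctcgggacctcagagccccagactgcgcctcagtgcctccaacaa
That run, GGGAATTTCCCTGG, is 14 bases long and starts 71 bases before the start of Cxcl1 and 97 bases before that of Cxcl2. Promoters were listed for 96 members, and 2 of them hold it, these same genes; of all 27025 genes with a promoter of this length listed, 2 (0.0074%) hold it on either strand. The Saa3 stretch does not contain it. The run was chosen because this pair shares it, so its count is a description of the letters. Binding of a factor was not measured.

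Among CC chemokines, the monocyte attractants Ccl2 and Ccl7 were among the most abundant transcripts of both lines. Ccl2 had 754.5 FPKM from B6 and 1342 FPKM from PWK in B6-Xi, and 832.2 and 892.1 FPKM in PWK-Xi. The totals, 2097 and 1724 FPKM, were rank 16 and rank 12 of all genes. Ccl7, its neighbour on chromosome 11, had totals of 1192 and 1123 FPKM at ranks 38 and 27. Neither gene differed by 2-fold, and the sign of the small difference of Ccl7 turned when both libraries were scaled to the same sum.

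Ccl8, which lies in the same cluster and encodes another CC chemokine, had 302.8 FPKM in the B6-Xi line against 84.7 in PWK-Xi, where it was 3.57-fold lower. The difference was 15.1-fold on the B6 allele (80.7 and 5.34 FPKM) and 2.80-fold on the PWK allele (222.1 and 79.4 FPKM). Ccl11, which lies between Ccl7 and Ccl8 and encodes an eosinophil attractant, had 0.423 and 0.492 FPKM, and Ccl12 and Ccl1 of that cluster were listed at 0 in both lines. Chromosome 11 as a whole was lower in PWK-Xi, with a median log2 difference of -0.48 over 466 genes, and its part in these differences was not tested. In the other CC cluster of chromosome 11, Ccl9, a macrophage chemokine, had 16.3 FPKM against 0.640 FPKM in PWK-Xi, while its neighbours Ccl5, Ccl6, Ccl3 and Ccl4 were listed at 0 in both.

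A pair of neighbouring chemokine genes on chromosome 8 was seen almost only in B6-Xi. Cx3cl1, the membrane-anchored ligand of CX3CR1, had 2.36 FPKM from B6 and 8.26 FPKM from PWK in B6-Xi, and 0 and 0.089 FPKM in PWK-Xi. Ccl17, a T cell attractant, had 9.15 FPKM, entirely PWK, in the B6-Xi line and was listed at 0 in the other. Ccl22, on the other side of Cx3cl1, was listed at 0 in both lines. The chromosome's median log2 difference was -0.23.

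The CXC genes of chromosome 5 went the other way. Cxcl5, a neutrophil attractant, had 41.2 FPKM from B6 and 54.6 FPKM from PWK in B6-Xi, and 165.3 and 52.4 FPKM in PWK-Xi. Its total was 2.27-fold higher in PWK-Xi, with the B6 allele 4.01-fold higher and the PWK allele slightly lower. Cxcl1, Cxcl2 and Cxcl3, the neighbouring neutrophil attractants, were at 0 in the B6-Xi file and had 35.0, 5.61 and 1.52 FPKM in the other line. Cxcl1 came from PWK (34.8 FPKM, against 0.132 FPKM from B6), whereas Cxcl2 beside it came from B6 (5.22 FPKM, against 0.398 FPKM from PWK). The median log2 difference of chromosome 5 was 0.32. Cxcl10, an interferon-induced T cell attractant on the same chromosome, had 3.10 and 6.20 FPKM, and Cxcl9 and Cxcl11 beside it were listed at 0 in both lines.

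Cxcl12, the ligand of CXCR4 made by stromal cells, had nearly equal totals of 32.9 FPKM in the B6-Xi line and 33.8 FPKM in PWK-Xi. Beneath them the alleles differed: 32.4 FPKM from B6 and 0.457 FPKM from PWK in B6-Xi, but 21.0 and 12.9 FPKM in PWK-Xi. Cxcl16, a transmembrane chemokine, had 10.3 and 14.3 FPKM, which is 1.39-fold higher in PWK-Xi. Cxcl17 reached 0.737 FPKM in the B6-Xi library, with 0 listed for PWK-Xi. None of the 19 listed chemokine receptor genes reached 1 FPKM in either line, the highest being Cxcr5 at 0.735 FPKM in B6-Xi.

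**Figure D2:**
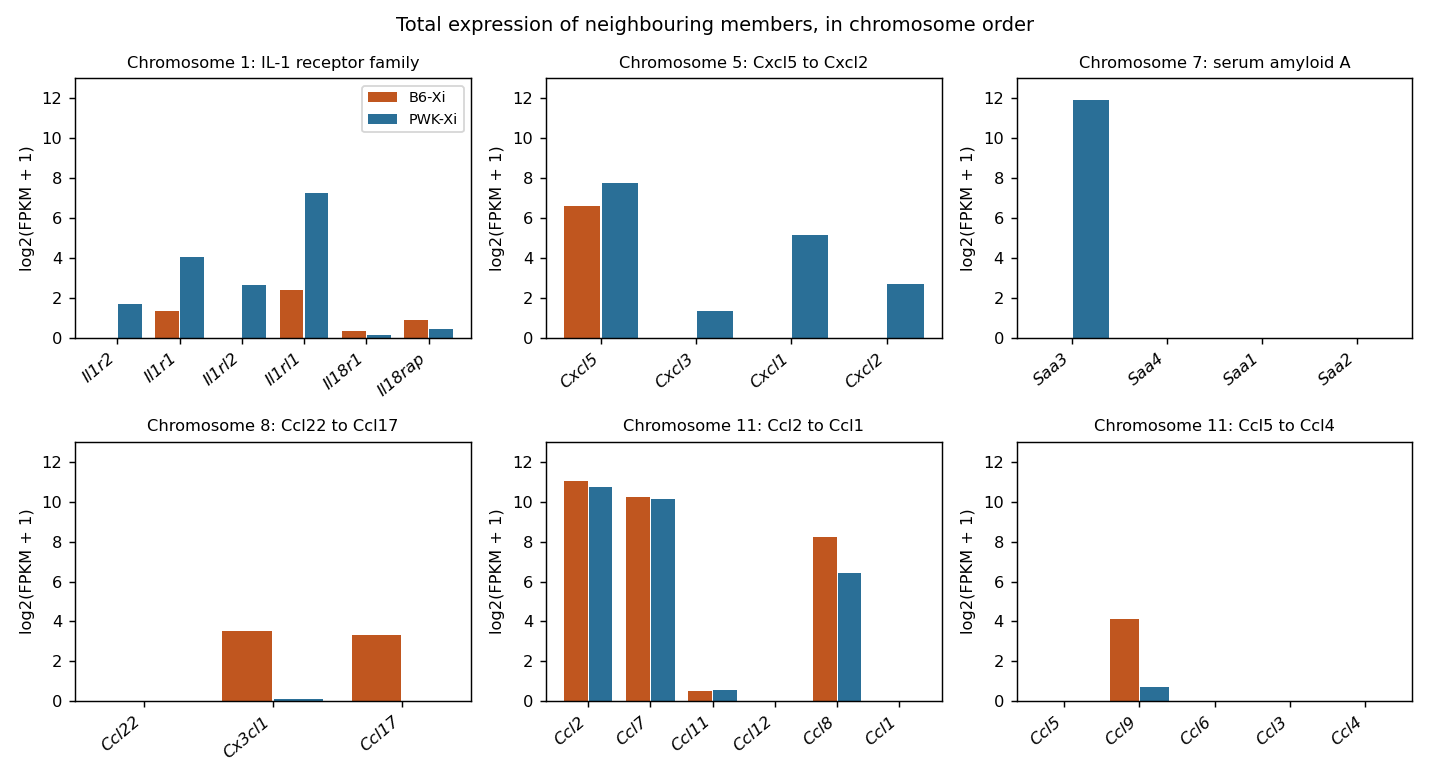
Total expression on the scale log2(FPKM + 1) in B6-Xi and PWK-Xi (1 library each) for members that lie together, in chromosome order within each of 6 clusters; a missing bar is a value of 0. The chromosome 1 and 5 clusters are higher in PWK-Xi except for Il18r1 and Il18rap, the chromosome 8 pair and Ccl9 are nearly confined to B6-Xi in these 2 libraries, and of the serum amyloid A genes Saa3 alone has a bar.

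Several receptors of the interleukin-1 family had higher values in PWK-Xi, though not its interleukin-18 receptor chains, and Il1rapl1 and Il1rapl2 were listed at 0 in both lines. Il1rl1, the receptor of interleukin-33 (also called ST2), had 2.08 FPKM from B6 and 2.15 FPKM from PWK in B6-Xi, and 116.2 and 34.5 FPKM in PWK-Xi. The totals of 4.23 and 150.7 FPKM were 35.6-fold apart, and each allele was the higher one in PWK-Xi, by 55.8-fold for B6 and 16.1-fold for PWK. Il1r1, the signalling receptor of interleukin-1, had 1.52 and 15.5 FPKM, a 10.2-fold difference. Il1rl2, the interleukin-36 receptor, and Il1r2, a decoy receptor of interleukin-1, were at 0 in the B6-Xi file and had 5.25 and 2.23 FPKM in the other line.

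These 4 genes lie side by side on chromosome 1, and Il18r1 and Il18rap, the next in the row and the chains of the interleukin-18 receptor, had the higher values in B6-Xi (0.285 and 0.101 FPKM, and 0.868 and 0.376 FPKM), all under 1 FPKM. Chromosome 1 as a whole had a median log2 difference of 0.37, against 4.63 for Il1rl1 and 2.49 for Il1r1. Il1rap, the accessory chain that Il1rl1, Il1r1 and Il1rl2 share, lies on chromosome 16. It had 1.18 and 30.6 FPKM, a 25.9-fold difference that held for both alleles (31.9-fold for B6 and 23.9-fold for PWK). Chromosome 16 had a median log2 difference of 0.29. Of the ligands of these receptors, Il33 had 0.050 FPKM in B6-Xi alone and Il1b 0.038 FPKM in PWK-Xi alone, and Il1a is given above.

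The other receptors changed less or stayed low. Il6st, the gp130 chain shared by the interleukin-6 family, had 5.67 and 7.37 FPKM. Il6ra, the chain that binds interleukin-6, had 0.826 and 1.18 FPKM. Il10rb, a shared chain of the interleukin-10 family, had 5.00 and 5.55 FPKM. Il11ra1, the interleukin-11 receptor, had 5.99 and 8.91 FPKM; it has near-identical copies beside it, among them Il11ra2, listed at 0 in both lines, so its value is uncertain. Il17rc, a chain of the interleukin-17 receptor, had 6.48 and 1.83 FPKM, 3.53-fold lower in PWK-Xi, with 2.78 and 0.050 FPKM from PWK. Its partner chain Il17ra had 1.60 and 1.37 FPKM. Il4ra, which pairs with Il13ra1 or Il2rg, was listed at 0 in both lines.

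Of the other cytokines, Csf1, the growth factor of macrophages, had 35.1 FPKM from B6 and 38.6 FPKM from PWK in B6-Xi, and 10.5 and 9.78 FPKM in PWK-Xi. It was 3.64-fold lower in PWK-Xi, by 3.36-fold for the B6 allele and 3.94-fold for the PWK allele. Its receptor Csf1r had 0.169 and 0.251 FPKM. Tslp, an epithelial and stromal cytokine acting on dendritic cells, had 4.69 FPKM, entirely PWK, in the B6-Xi line against 0.431 in PWK-Xi. Csf2, a granulocyte and macrophage growth factor, was at 0 in the B6-Xi file and at 1.03 FPKM in the other, and Lif, a ligand of the gp130 family, was listed at 0 in both.

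**Figure D3:**
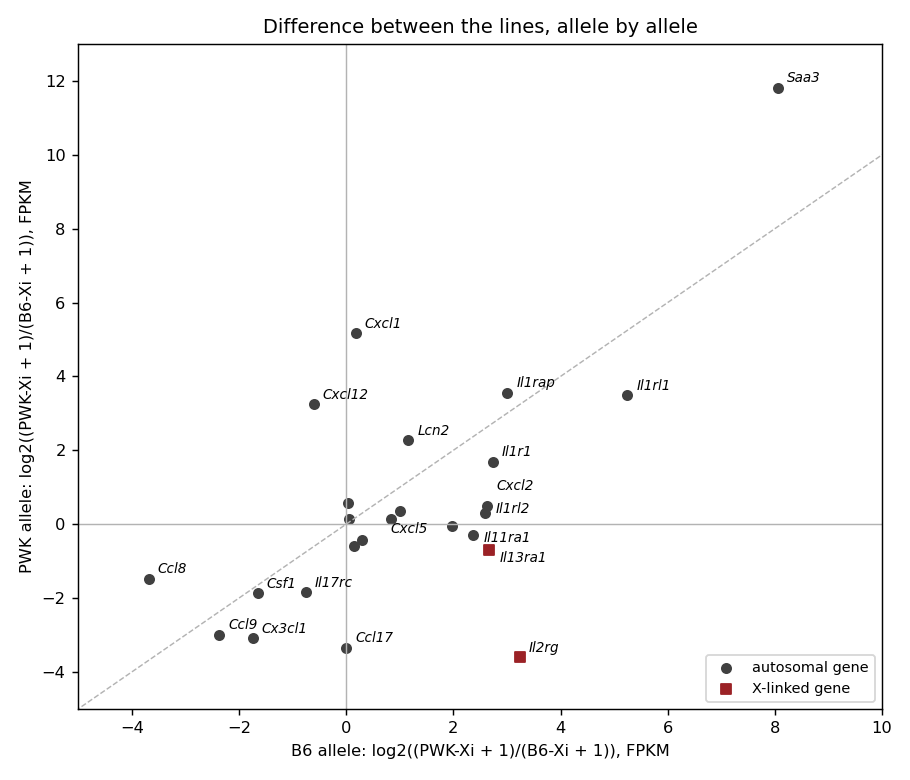
Log2 difference between the lines, with a pseudocount of 1 FPKM, of the B6 allele (x axis) and the PWK allele (y axis) for the 25 members with at least 5 FPKM in either line; the dashed line marks equal differences. Saa3, Il1rl1, Il1rap and Il1r1 lie above 0 on both axes, Ccl8, Ccl9, Cx3cl1, Csf1 and Il17rc lie below 0 on both, and the X-linked Il2rg lies apart in the lower right, while the X-linked Il13ra1 lies beside the autosomal Il11ra1.

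The allelic shares were then compared with those of the surroundings. Of 21 autosomal members with at least 1 FPKM in B6-Xi, 4 came to at least 90% from 1 strain (19%, against 14.5% of 7820 autosomal genes), and of 30 in PWK-Xi 7 did (23.3%, against 4.91% of 8720). In B6-Xi these were Cxcl12 (98.6% B6), Ccl17, Il11ra1 and Tslp (0% B6 each). In PWK-Xi they were Cxcl1 (0.379% B6), Ccl8 (6.30%), Saa3 (6.84%), Cxcl2 (92.9%), Il1rl2 (95.5%), Il17rc (97.3%) and Ccl27a (100%). The 20 nearest other genes with at least 1 FPKM gave the local median for each. In PWK-Xi that median was 39.7% B6 beside Cxcl1 and Cxcl2, 51.7% beside Ccl8, 47.0% beside Saa3, 67.4% beside Il1rl2, 52.9% beside Il17rc and 58.0% beside Ccl27a. Ccl27a (3.17 FPKM in PWK-Xi) lies in the cluster of Il11ra1, beside Ccl27b, listed at 0 in both lines, and its share is uncertain as well. In B6-Xi the local median was 46.6% beside Cxcl12, 45.4% beside Ccl17 and 48.9% beside Tslp. It was 0% beside Il11ra1, where the surroundings on chromosome 4 also came from PWK.

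Some members lay close to their surroundings and others did not. Ccl2 and Ccl7 had B6 shares of 36.0% and 40.8% in B6-Xi, where the local median was 41.4%, and of 48.3% and 53.2% in PWK-Xi, where it was 51.7%. Il1r1 had 51.9% and 70.5%, beside local medians of 52.3% and 67.4%. Il1rl1 had 49.3% and 77.1% at the same locus. Cxcl5 had 43.0% and 75.9%, while its surroundings went from 59.4% to 39.7%, the opposite direction. Over the 17 autosomal members that reached 1 FPKM in each line, the B6 share was higher in PWK-Xi for 13. The same held for 54.8% of 7435 autosomal genes. The median absolute difference was 18.6 points for the members, against 13.6 points for all of these genes. The local medians moved too, upward in PWK-Xi beside Ccl2, Ccl7 and Il1r1 and downward beside Cxcl5. Their part in the count of 13 was not tested.

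Shares equal to simple ratios were more frequent in B6-Xi. There 11 of 22 members with at least 1 FPKM had a share that, within 0.001 points, was a ratio of whole numbers no greater than 10 (47.1% of all genes), against 5 of 32 in PWK-Xi (12.8% of all genes). Shares of 0% and 100% are counted among these ratios, for members and for all genes. They make up 3 autosomal members and Il2rg in B6-Xi, and 1 autosomal member, Il2rg and Il13ra1 in PWK-Xi. Read depth is unknown, so no interval can be given, and the shares of low genes such as Il3ra, a chain of the interleukin-3 receptor (a B6 share of 10% at 2.67 FPKM in B6-Xi, and of 51.3% at 2.80 FPKM in the other line), rest on an unknown number of reads.

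Both detected X-linked members came from the active X in each line. Il2rg, the common gamma chain of several interleukin receptors, had 11.2 FPKM, entirely PWK, in the B6-Xi line and 8.41 FPKM, entirely B6, in the other. Il13ra1, an interleukin-13 receptor chain, had 0.613 FPKM, entirely PWK, and 5.30 FPKM, entirely B6. The remaining 3 of the 5 X-linked members were listed at 0 in both lines.

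**Figure D4:**
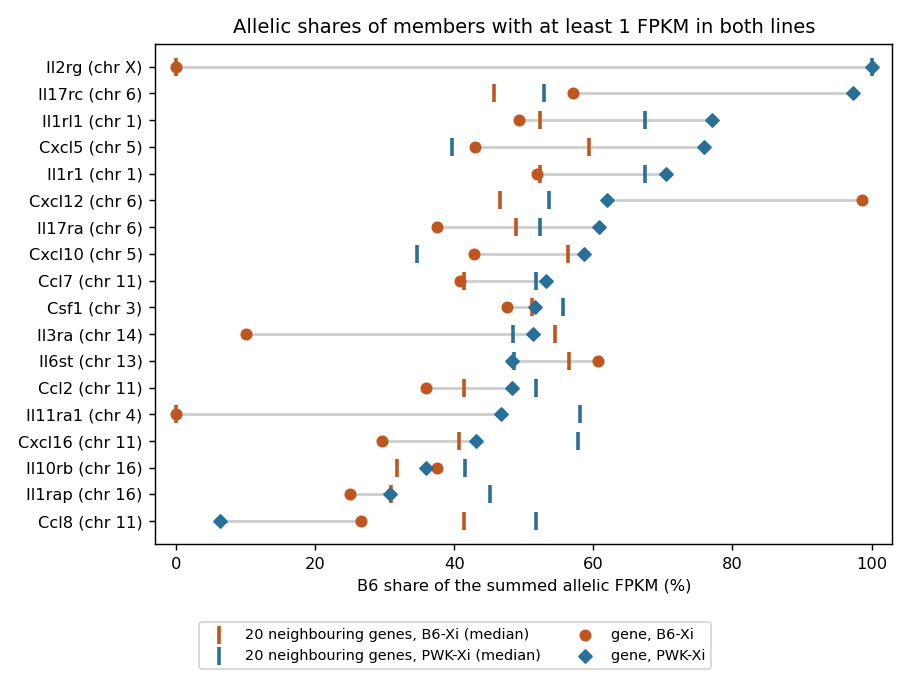
B6 share (percent of the summed allelic FPKM) in B6-Xi (circles) and PWK-Xi (diamonds) for members with at least 1 FPKM in both lines, with ticks at the median share of the 20 nearest other genes in the same line. Il2rg and Il11ra1 lie on their ticks in B6-Xi, Ccl2 and Ccl7 lie near theirs in both lines, and Cxcl12, Ccl8 and Il17rc lie far from theirs in at least 1 line.

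Genes of the signalling pathways were read from lists, with the background that 17.8% of 5490 genes reached 2-fold higher in PWK-Xi and 5.83% reached 2-fold lower; such counts are without the shift of the median. Of 27 other acute-phase genes listed, 8 reached 5 FPKM, and these 8 were at least 2-fold higher in PWK-Xi, with a median log2 difference of 1.64. Serpina3n, Cebpd and Steap4 among them reached 5 FPKM in PWK-Xi alone, which is also the line where they are high. Serpina3n (0.886 and 6.08 FPKM) and Serpina3g (19.3 and 65.2 FPKM) lie on chromosome 12, whose median log2 difference was 0.74. The part of that chromosome in their differences was not tested. Of the listed genes under 5 FPKM, 11 were listed at 0 in both lines. C3 (1.54 and 1.04 FPKM), Orm3 (0.738 and 0 FPKM) and Itih3 (0.141 and 0 FPKM) had their higher values in B6-Xi. Mt1, a metallothionein gene, had 423.9 and 879.1 FPKM, Mt2 had 71.7 and 183.1 FPKM, and Ptx3, a pentraxin made by stromal cells, had 6.56 and 87.7 FPKM. Steap4, a metalloreductase, was at 0 in the B6-Xi file and at 8.25 FPKM in the other. The C/EBP factor genes Cebpb (8.03 and 30.9 FPKM) and Cebpd (1.79 and 10.1 FPKM) belong to this list.

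Of 19 other inflammatory genes of fibroblasts, 8 reached 5 FPKM, and 5 of these 8 were at least 2-fold higher in PWK-Xi and none 2-fold lower, with a median of 1.34. Among the 5, Ptgs2, Mmp13 and Icam1 (1.53 and 5.62 FPKM) reached 5 FPKM in PWK-Xi alone, which is also the line where they are high. Mmp3, a stromelysin, had 13.9 and 233.2 FPKM, Mmp13, a collagenase, had 0.697 and 19.0 FPKM, and Ptgs2, the inducible cyclooxygenase, had 2.37 and 20.8 FPKM. Tnfrsf1a, a receptor of tumour necrosis factor, stayed close at 32.7 and 27.8 FPKM, and Vcam1, an adhesion receptor for leukocytes, at 30.6 and 31.4 FPKM.

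Genes for NF-κB subunits, inhibitors and feedback went both ways. Of 11 that reached 5 FPKM, 3 lay 2-fold or more higher and 2 lay 2-fold or more lower, so that 6 stayed within 2-fold, and the median of the 11 was 0.14. The 3 higher ones, Nfkbiz, Bcl3 and Nfkbib (4.02 and 12.2 FPKM), reached 5 FPKM in PWK-Xi alone, the line where they are high. Of the 2 lower ones, Birc2 (6.24 and 2.59 FPKM) reached it in B6-Xi alone. Nfkbia, an inhibitor that NF-κB itself induces, had 45.0 and 37.8 FPKM, and the subunit genes Rela and Nfkb2 had 16.5 and 11.5 FPKM, and 19.8 and 5.76 FPKM. Nfkbiz and Bcl3, nuclear inhibitor-family proteins that modulate NF-κB target genes, were the higher ones past 4-fold, at 2.11 and 18.8 FPKM for Nfkbiz and at 0 and 6.28 FPKM for Bcl3.

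Of 6 interleukin-1 and Toll-like receptor signalling genes that reached 5 FPKM, 1 was at least 2-fold higher, against 17.8% of all genes so filtered. That gene was Ly96, the lipopolysaccharide-binding partner of TLR4 (4.55 and 30.5 FPKM). It reached 5 FPKM in PWK-Xi alone, the line where it is high. The adaptor gene Myd88 had 9.65 and 9.13 FPKM. Of 9 gp130 and JAK-STAT genes at that level, 1 was at least 2-fold higher, Osmr, the oncostatin M receptor (8.07 and 50.0 FPKM). Jak1 (27.2 and 27.0 FPKM) and Stat3 (13.2 and 11.5 FPKM) stayed close. Among 10 factors of cytokine mRNA decay or stability, 3 were at least 2-fold higher: Zfp36l1, Zfp36l2 and Rc3h1 (1.95 and 5.90 FPKM). All 3 reached 5 FPKM in PWK-Xi alone, the line where they are high. Zfp36l1 and Zfp36l2 were at 0 in the B6-Xi file and had 25.4 and 10.9 FPKM in the other line. The related Zfp36 had 17.1 and 14.6 FPKM. Receptors of the other ligands were low: Scarb1, a receptor that binds serum amyloid A, had 6.89 and 9.55 FPKM, and Crlf2, a chain of the TSLP receptor, had 3.09 and 4.78 FPKM.

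**Figure D5:**
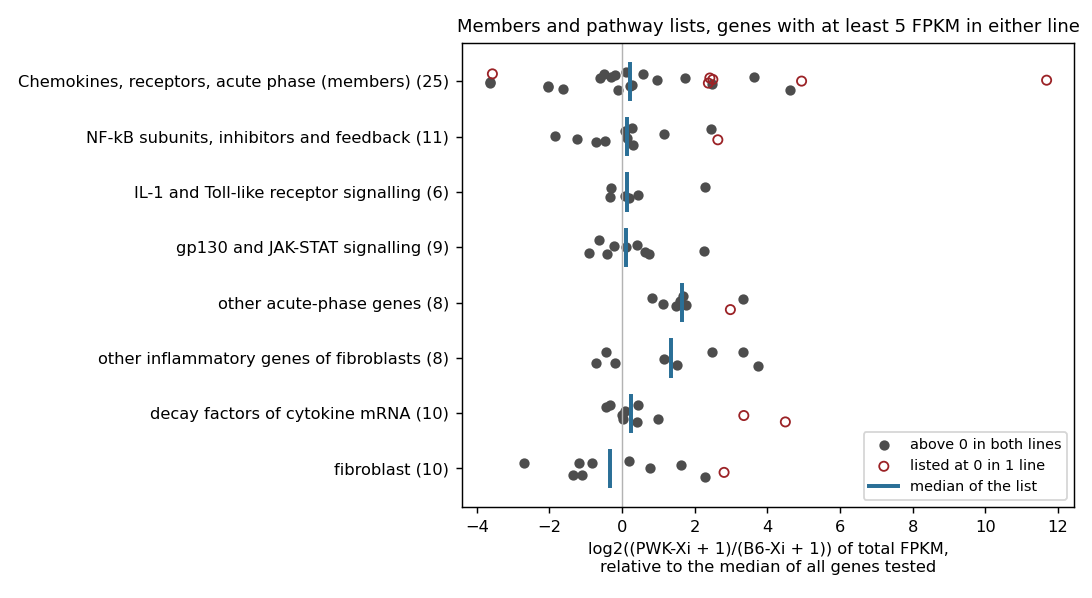
Log2 difference between the lines relative to the median of all genes tested, for the 25 members and for the genes of each pathway list with at least 5 FPKM in either line (numbers in brackets); open circles are genes listed at 0 in 1 line and bars are medians. The members spread to both sides with a median of 0.21, and the lists of other acute-phase and other inflammatory genes lie to the right, with medians of 1.64 and 1.34. Some genes of both lists reached 5 FPKM in PWK-Xi alone, where they are high.

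In such bulk libraries a lower share of cells making a transcript and less of it per cell cannot be told apart, and which holds for Saa3, Il1rl1 or Csf1 was not tested. The fibroblast markers differed between the lines as well: of 10 with at least 5 FPKM, 4 lay 2-fold or more higher in PWK-Xi and 2 lay 2-fold or more lower, among them Dcn, a matrix proteoglycan gene (79.1 and 456.4 FPKM), and S100a4 (13006 and 2321 FPKM). Among the markers counted, Lum reached 5 FPKM in PWK-Xi alone and Col3a1 in B6-Xi alone, in each case the line where the gene is high. Col1a2, a collagen gene, had 134.3 and 69.2 FPKM. The part of these differences in those of the members was not tested.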

How the data were processed

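Polyadenylated RNA of 1 library per line was sequenced after Smart-seq2 preparation, per the labels' protocols. The build mm9 and the tools StringTie 2.1.1, HISAT2 2.2.0 and Trim Galore 0.6.4 come from the submitters' processing notes. The authors deposited FPKM values per gene and allele, per the file headers; the assignment of reads to alleles is not stated in the labels, and read depth is unknown.

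Alleles were summed, and differences were log2((PWK-Xi + 1)/(B6-Xi + 1)), which understates the change of low genes, for genes that reached 5 FPKM in a line. Shares used at least 1 FPKM. Chromosomes and gene order came from RefSeq and GENCODE annotations of GRCm38; all 125 members matched by RefSeq symbol. Clusters allowed at most 3 other genes between members. Members with at least 5 FPKM were all named, and other genes by the abundance in their list or a difference past 4-fold. Il6ra, Il33, Il1b, Ccl11, Il18r1, Il18rap, Il4ra and Lif, and Cebpb, Cebpd, Vcam1, Dcn, Mmp13, Myd88, Stat3, Ptprc, Csf1r and Crlf2, were added for their role. Cxcl17, Ccl27b, Il1rapl1, Il1rapl2, C3, Orm3, Itih3, Serpina3n, Serpina3g, Icam1, Nfkbib, Birc2, Rc3h1 and Col3a1 were added after values were seen. The clusters, the promoters shown and the shared run were chosen after values were seen, and the members and lists with earlier results of these data known. Tools were pandas 2.3.3, numpy 2.4.6, matplotlib 3.10.9 and Python 3.11.15.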

Additional observations from a re-analysis of the deposited data

How the results depend on the processing

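No paired analysis was possible because each line has 1 library. As reported, 8 of 25 members were at least 4-fold higher in PWK-Xi and 3 were lower, against 7.05% and 1.33% of all genes. With genes above 0 in both lines only, the higher count fell to 3 of 19, against 2.79%. Without the 17 members on the 9 skewed autosomes it fell to 1 of 8. Those autosomes had a median B6 share over 5 points from the autosomal median in either line. All genes were not recounted without them. The lower count became 5 of 25 relative to the median of all tested genes, against 1.64% of all genes, and 6 of 25 at 2-fold, against 5.83%. The members' median log2 difference, 0.44 before that median was subtracted, was 0.48 with a pseudocount of 0.1 FPKM, 0.66 with a minimum of 1 FPKM, 0.15 with no minimum, 0.13 with genes above 0 in both lines, 0.59 with equal sums, 0.21 relative to all tested genes, and -0.17, the opposite sign, without those 17 members; the last leaves 8 members by construction. With a minimum of 5 FPKM, 14 of the 125 members in B6-Xi and 21 in PWK-Xi were counted in place of 22 and 32. Of all 22711 genes, 4385 and 5065 reached that minimum. Members from 1 strain in PWK-Xi went from 7 of 30 to 4 of 18 without the chromosomes skewed in that line. The share over all genes was not computed for that setting. The other counts stayed within 1.5 times. Of the 25 named members, 0 changed sign with the smaller pseudocount and 1 (Ccl7) with equal sums, while 4 did on the B6 allele alone and 3 on the PWK allele alone; no member past 4-fold was among them. With FPKM and no counts, depth limits the low values by an unknown amount.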
